A study of Mus musculus with 4 samples.

Results

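The DKO array and the array labelled G2KO were compared over 19364 of 25254 named genes. Of the 39397 probes with a value on all 4 arrays of the study, the 29524 that rose clearly over background on 1 or both of these arrays were taken, with no choice by their ratio. The study asked what cyclin G1 (CycG1, gene Ccng1) and cyclin G2 (CycG2, gene Ccng2) do in mouse embryonic fibroblasts (MEFs), the mesenchymal cells that grow out when a midgestation embryo is dissociated and plated. Total RNA of MEFs in logarithmic growth, cultured in DMEM with fetal bovine serum and given no treatment, was read on Agilent mouse genome arrays in 1 color, all 4 on 1 slide. By their labels, the preparations were Ccng1-/-Ccng2-/- (DKO), CycG2-/- (G2KO) and 1 WT preparation beside each, every one on the C57BL/6J background. Both arrays compared here thus lack CycG2 by label, and what separates them by label is the loss of CycG1, through an allele in which every protein-coding exon of Ccng1 was replaced by a neomycin cassette. Each genotype is 1 preparation on 1 array, MEF preparations of a genotype can differ from embryo to embryo, and nothing in the labels says how many embryos a preparation holds. No ratio below therefore has a replicate or a test, and genotype and preparation cannot be told apart. Since the direction in which the study lists genes for its G2KO microarrays is opposite to that of the labels of the G2KO pair, the array is called "the array labelled G2KO" throughout, every direction rests on its label, and levels on the WT arrays are given beside the main genes and lists.

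Cyclin G1 and cyclin G2 are unusual cyclins. They bind B' regulatory subunits of the phosphatase PP2A and direct it to targets such as Mdm2, the ubiquitin ligase that limits p53. Ccng1 is itself a transcriptional target of p53, so that it forms part of a feedback loop on the p53 response, while Ccng2 is known as a gene of arrested cells. In fibroblasts this pathway acts on cell cycle arrest after DNA damage.

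The level of a probe is its signal as a multiple of the 75th percentile of its array, and a ratio is the level on the DKO array over that on the array labelled G2KO, on the log2 scale. Of the 29524 probes, 25781 were measured on both arrays, 2669 were dim (the software did not flag them as well above background) on that labelled G2KO, 1058 were dim on the DKO array, and 16 gave no fold. A dim probe entered the ratio with its own signal or the lowest signal flagged well above background on that array, whichever was higher. Such a ratio is given as "at least". That lowest signal was 12.98 on the DKO array and 14.74 on the array labelled G2KO, whereas probes dim on both arrays, which were left out, had signals of up to 20.5 and 23.7, because the software judges each spot against its own background. The median ratio was 0.12 over all probes compared. The SD of the ratios over probes bright on all 4 arrays was 1.036, next to 1.005 between the arrays labelled WT and 0.535 between the array labelled G2KO and the WT array beside DKO.

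A total of 2461 probes (8.34%) differed at least 4-fold, 1340 (4.54%) higher on the DKO array and 1121 (3.8%) higher on the array labelled G2KO. For 921 of them only a lower limit was measured. Without scaling between arrays the split turned to 1037 higher and 1430 lower on the DKO array. It also turned under quantile normalization (1203 higher and 1342 lower) and under scaling to the median (1206 higher and 1243 lower). At the level of genes, each taken by its brightest probe, 1818 of 19364 named genes (9.39%) differed at least 4-fold, 968 (5%) of them higher on the DKO array and 850 (4.39%) higher on the array labelled G2KO, and the median ratio was 0.11. These are the shares against which the counts of each gene list below are read, and "higher" and "lower" without a size mean at least 4-fold. The arrays labelled WT differed from each other at 1981 probes (7.09%), the DKO array from the WT array beside DKO at 2246 (7.7%) and from the WT array beside G2KO at 2772 (9.37%), and the array labelled G2KO from the WT array beside DKO at 581 (2.13%) and from its own WT array at 1555 (5.5%). A count of the size seen here thus also separated preparations of the same labelled genotype. Repeat measurements within the arrays were tighter: the software's own error model gave a median SE of 0.204 for a log2 ratio, and over 4073 genes with several measured probes the ratios of these probes spanned 0.226 in the median gene and 0.981 at the 90th percentile.

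**Figure D1:**
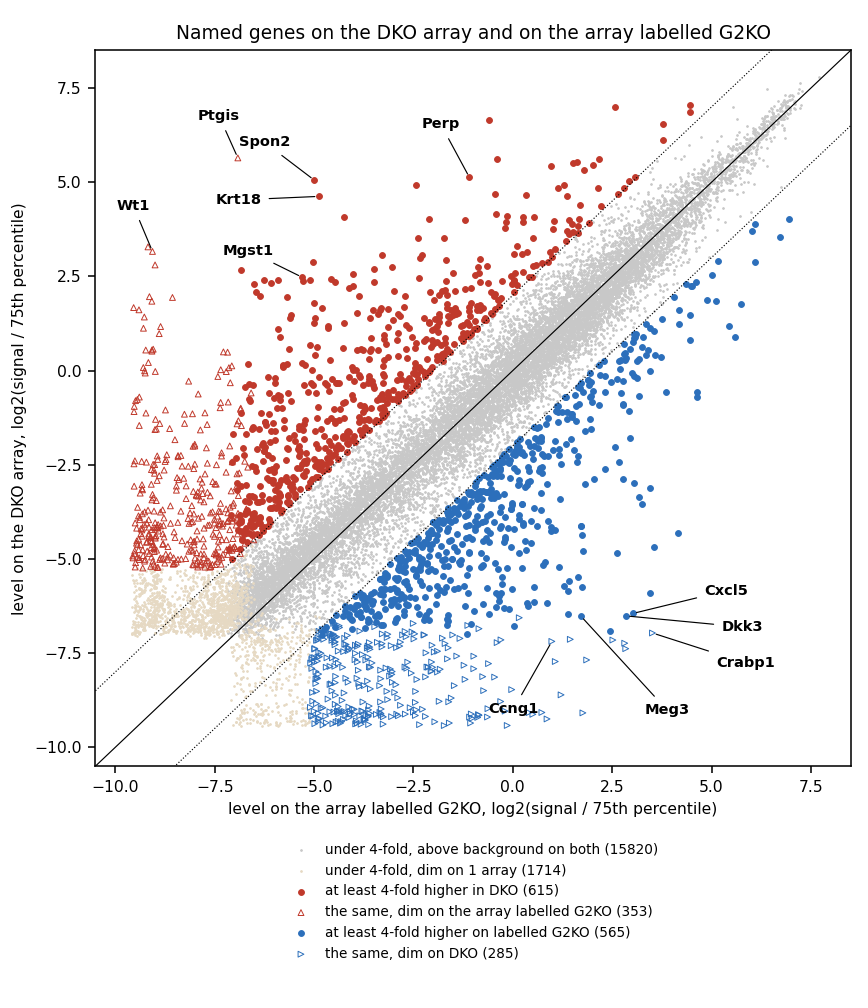
Each point is a named gene, with its level on the array labelled G2KO (x axis) and on the DKO array (y axis). Both are log2 of the multiple of the array's 75th percentile, and the dotted lines mark 4-fold. Filled red and blue points are above background on both arrays, open triangles on 1. Genes under 4-fold are small dots, grey where above background on both arrays and beige where dim on 1. Red genes (968) lie above and blue genes (850) below the band, among them Ptgis, Spon2 and Krt18 above and Crabp1, Dkk3 and Cxcl5 below.

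Ccng1 was read first, since its loss is what the labels give as the difference. Its probe (chromosome 11 of mm9, 40562427 to 40562486) was dim on the DKO array, with a level of 0.00685, and was at 1.98 on the array labelled G2KO, which makes it at least 271-fold lower in DKO MEFs. It was at 1.66 on the WT array beside DKO and at 9.45 on that beside G2KO, so the DKO array was the low one of the 4. Ccng2, disrupted on both arrays by label, was above background on all 4, with levels of 0.0619 on the DKO array, 0.091 on the array labelled G2KO, 0.0806 and 0.104 on the WT arrays beside DKO and G2KO. The 4 levels lay close together and the probe did not set either array apart from a WT array; whether it lies in the disrupted part of Ccng2 is not given in the sources used here, so it checks no label. Of 13 genes for cyclin G relatives and PP2A subunits, Ccng1 was the 1 gene past 4-fold and the list median was -0.39. The B'γ subunit gene Ppp2r5c, whose protein binds CycG2, had a level of 0.826 on the DKO array and 1.97 on the array labelled G2KO (log2 ratio -1.25), with 1.86 and 1.63 on the WT arrays beside DKO and G2KO. Ppp2r1b, a scaffold subunit, had a log2 ratio of -1.37, and the catalytic subunits Ppp2ca and Ppp2cb had -0.11 and -0.39.

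The genes with the largest differences are given first for the DKO side. Among genes measured on both arrays, Spon2, a secreted matrix protein, led on the DKO side with a level of 33.3 against 0.0313 on the array labelled G2KO, a log2 ratio of 10.05. It was at 0.164 and 0.289 on the WT arrays beside DKO and G2KO, so the DKO array stood far above the other 3. Ptgis, the synthase of prostacyclin, was at 50.1 on the DKO array and dim on the array labelled G2KO, at least 6057-fold higher, and was just above background on the WT arrays beside DKO and G2KO with 0.0183 and 0.0138. Il33, a nuclear cytokine, was at least 1059-fold, Ces5, a carboxylesterase, at least 582-fold, and Scel, a precursor protein of the cornified envelope, at least 483-fold higher. Cpz, a carboxypeptidase of the matrix, differed 729-fold, Pon3, a lactonase, 321-fold, Acp5, tartrate-resistant acid phosphatase, 265-fold, Cyp2s1, a cytochrome P450, 239-fold, and 2200002D01Rik 406-fold. These 8 genes had levels between 2.99 and 6.99 or, for Cyp2s1, of 7.33 on the DKO array, and were dim or at most at 0.155 (Ces5) on the WT arrays, with 2200002D01Rik at 0.15 and Cyp2s1 at 0.0549 on that beside G2KO. A second probe of Acp5 gave 7.62 on the log2 scale beside 8.05 for the first.

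On the other side, Crabp1, which binds retinoic acid in cranial and limb mesenchyme, was at 11.4 on the array labelled G2KO and dim on the DKO array, at least 1430-fold lower there. Its level was 14.9 on the WT array beside DKO and 1.5 on that beside G2KO. Lrrc15, a membrane protein of activated fibroblasts, was at 10.9 and 0.0167 (654-fold), Kctd15 at 5.42 and 0.00832 (651-fold), and Cspg4, the NG2 proteoglycan of pericytes, at 11.7 and 0.039 (299-fold) on the array labelled G2KO and the DKO array, respectively. Of these 3 genes, all were also above the DKO level on both WT arrays, Lrrc15 least so on that beside G2KO (0.123). Aqp1, a water channel, was at least 981-fold, Cdh13, an atypical cadherin, at least 784-fold, Srpx2 at least 738-fold, Slco4a1, an organic anion transporter, at least 497-fold, and Kif1a, a kinesin motor, at least 373-fold lower on the DKO array. The WT array beside DKO held all of these 5 above background, at levels from 0.335 for Slco4a1 to 14.3 for Cdh13. That beside G2KO held Aqp1 at 0.59, Cdh13 at 4.23, Slco4a1 at 0.0683 and Kif1a at 0.709, with this Srpx2 probe dim. A brighter Srpx2 probe was above background on every array, at 0.611 on the DKO array and 24.6 on the array labelled G2KO. It was at 13.6 and 0.894 on the WT arrays beside DKO and G2KO. By that probe Srpx2 was 40.3-fold lower on the DKO array than on the array labelled G2KO. Mgll, monoacylglycerol lipase, and Kif5c, another kinesin, differed 153-fold and 137-fold. Additional probes of Mgll, Srpx2 and Kif1a also pointed lower on the DKO array, with log2 ratios or limits between -6.38 for Mgll and -3.46 for Kif1a, and 1 more probe of Mgll was dim on both arrays.

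**Figure D2:**
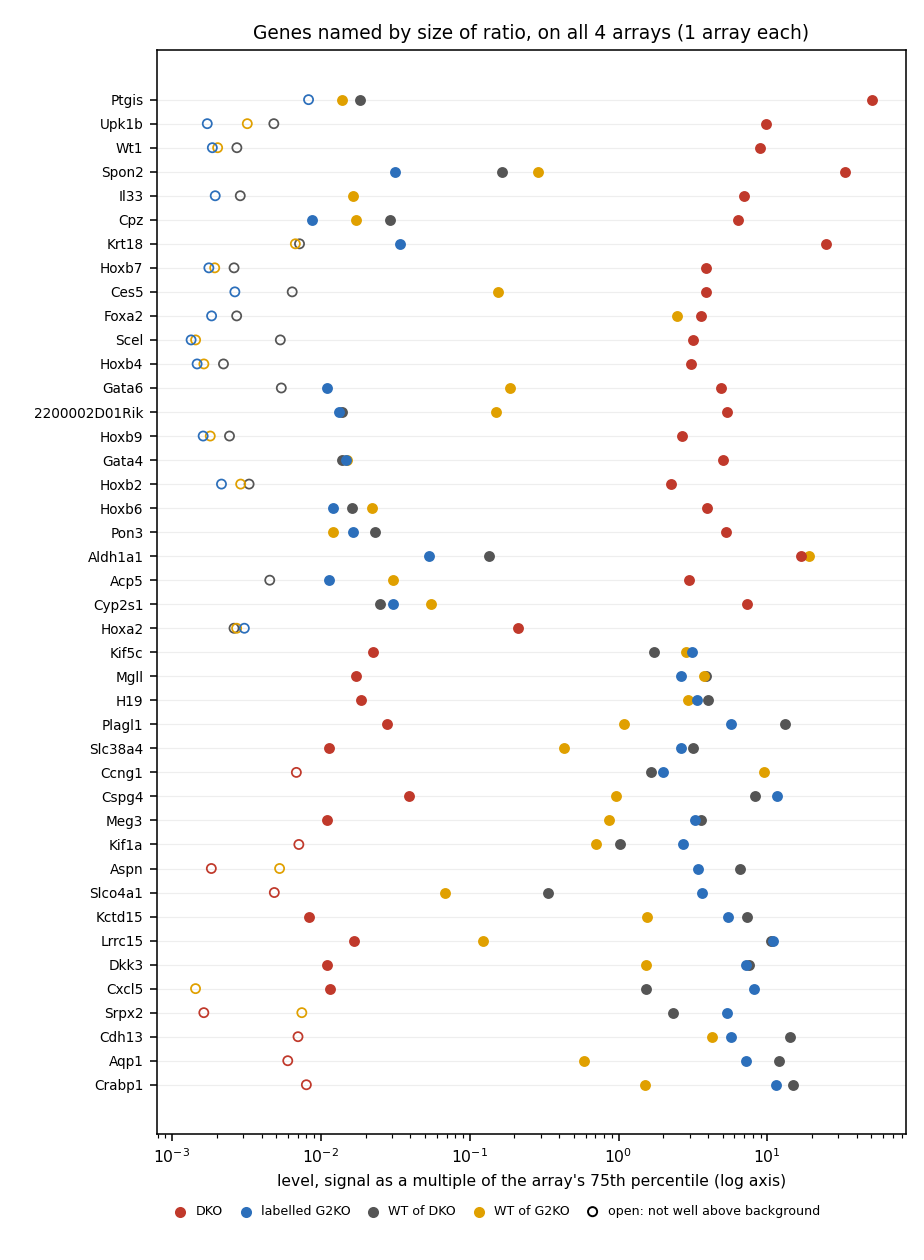
Levels of the genes named by the size of their ratio, with Ccng1, on the 4 arrays (x axis, multiple of the array's 75th percentile, log scale; 1 dot per array, open where the probe was not well above background). Above Kif5c, DKO (red) lies right of the array labelled G2KO (blue) for every gene drawn; Aldh1a1 and Foxa2 are the genes where the WT array beside G2KO (yellow) lies next to DKO, and from Kif5c down the red dot is the left one of the red and blue pair.

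The promoters of genes that stood at both ends are shown, as 300 bases around the start site (250 before and 50 after) from RefSeq on GRCm38.p6, plus strand in all 4, with CG dinucleotides in capitals. Krt18 (chr15:102027966-102028265) and Hoxb4 (chr11:96318017-96318316) were high on the DKO array. Crabp1 (chr9:54764498-54764797) and Aspn (chr13:49544193-49544492) were high on the array labelled G2KO.
Krt18: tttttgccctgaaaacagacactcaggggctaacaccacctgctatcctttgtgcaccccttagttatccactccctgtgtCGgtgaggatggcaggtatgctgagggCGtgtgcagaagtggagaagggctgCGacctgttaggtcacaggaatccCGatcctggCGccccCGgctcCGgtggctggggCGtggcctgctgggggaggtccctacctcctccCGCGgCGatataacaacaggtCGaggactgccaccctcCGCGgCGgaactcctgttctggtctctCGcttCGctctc
Hoxb4: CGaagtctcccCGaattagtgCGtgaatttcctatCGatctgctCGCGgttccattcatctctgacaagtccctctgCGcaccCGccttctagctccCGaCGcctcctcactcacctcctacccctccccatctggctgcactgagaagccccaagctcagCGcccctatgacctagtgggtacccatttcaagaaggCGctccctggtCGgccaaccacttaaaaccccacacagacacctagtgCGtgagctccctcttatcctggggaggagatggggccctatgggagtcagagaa
Crabp1: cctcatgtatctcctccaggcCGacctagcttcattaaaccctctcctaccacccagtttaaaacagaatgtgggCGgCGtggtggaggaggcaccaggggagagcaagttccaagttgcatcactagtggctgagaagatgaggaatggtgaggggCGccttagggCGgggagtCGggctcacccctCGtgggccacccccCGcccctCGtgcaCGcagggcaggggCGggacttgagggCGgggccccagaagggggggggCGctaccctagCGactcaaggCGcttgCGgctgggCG
Aspn: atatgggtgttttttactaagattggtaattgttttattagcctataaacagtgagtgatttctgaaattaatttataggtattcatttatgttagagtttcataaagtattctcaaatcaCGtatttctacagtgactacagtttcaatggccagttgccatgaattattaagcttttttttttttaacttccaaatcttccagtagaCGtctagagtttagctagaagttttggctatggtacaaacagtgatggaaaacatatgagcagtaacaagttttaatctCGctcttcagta
The window held 17 CG in Krt18, 14 in Hoxb4, 17 in Crabp1 and 3 in Aspn, where the median over 32851 mouse promoters of the same length was 7. At least as many were found in 31.4% of those promoters for Krt18 and Crabp1, in 36.3% for Hoxb4 and in 76.7% for Aspn. Krt18, Hoxb4 and Crabp1, from both directions, were thus above that median. The letters TATAAA, searched on both strands, were found in the window of Aspn and not in those of the other 3, and in 13.6% of all promoters.

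Markers of mesothelium, the epithelial sheet of mesodermal origin that lines the body cavities and organs and expresses keratins together with Wt1, made up the list with the highest median ratio. Of 25 markers, 23 were compared, 15 were higher on the DKO array and 0 on the array labelled G2KO, with a median log2 ratio of 4.48 (2.14 when only probes above background on both arrays were counted). Wt1, the transcription factor of mesothelium and kidney progenitors, was at 8.96 on the DKO array and dim on the other 3, at least 1357-fold above the array labelled G2KO. Upk1b, a uroplakin, behaved alike with 9.74 and a limit of 1475-fold, and Upk3b, another uroplakin, had 0.956 and a limit of 145-fold. Krt18, a keratin of simple epithelia, was at 24.7 against 0.0339, a 727-fold difference, and was dim on both WT arrays. Its partner Krt8 was at 0.784 against 0.0101 (77.9-fold). Msln, mesothelin, was at 100 on the DKO array, 0.664 on the array labelled G2KO, 0.492 and 1.52 on the WT arrays beside DKO and G2KO. Gata4 and Gata6, transcription factors of heart, gut and coelomic lining, were at 5.04 and 4.9 on the DKO array and at 0.0147 and 0.011 on the array labelled G2KO (342-fold and 447-fold), and Gata6 was at 0.187 on the WT array beside G2KO. Gpm6a was at least 216-fold, Nkain4 132-fold, Lrrn4 at least 89-fold and Bnc1 22.3-fold higher on the DKO array. Tcf21 and Calb2 were dim on both arrays, Aldh1a2, the retinoic acid synthase of mesothelium, had levels of 0.0118 and 0.0113, and the lowest ratio was that of Rspo1 with -1.38. The summed level of the list was 297 on the DKO array, 24.8 on the array labelled G2KO, 26.5 and 15.5 on the WT arrays beside DKO and G2KO, with 23, 16, 13 and 12 of the 25 markers above background. In bulk RNA, more cells of a type and more RNA per cell cannot be told apart. The part of these markers in the results for epithelial genes, Hox genes, p53 targets, complement and retinoid genes below was not tested.

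Epithelial markers outside the keratins of mesothelium were less uniform. Of 22, 17 were compared, 5 were higher and 2 lower on the DKO array, and the median was 0.43. Esrp2, a splicing regulator of epithelia, was at 0.599 against 0.0156 (38.4-fold), and Cdh1, E-cadherin, was at 0.25 against a dim signal (at least 34.8-fold). Both were at or near background on the WT arrays. Desmoplakin (Dsp) differed 4.26-fold and the protease gene St14 10.8-fold. Epcam, Grhl2, Ocln, Ovol1 and Krt20, which define most lining epithelia, were dim on both arrays. Cldn1 was at least 14.5-fold and Pkp1 10.2-fold lower on the DKO array. The summed level was 9.08 on the DKO array and 9.17 on the array labelled G2KO.

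The labelled cell type was checked on 24 fibroblast markers, all of them above background on both arrays. Collagen I and vimentin did not separate them: Col1a1 had levels of 41 and 37.2, Col1a2 of 142 and 136, and Vim of 60.5 and 55.4 on the DKO array and the array labelled G2KO. Nevertheless 6 markers were lower and 1 higher on the DKO array, with a list median of -0.21. Postn, periostin, was at 0.116 against 10.9 (93.5-fold), Pdgfra, a receptor of mesenchymal progenitors, at 0.0296 against 1.75 (59-fold), and Thy1 at 3.42 against 53.1 (15.5-fold). On the WT array beside DKO these genes were at 21.6, 5.22 and 61.5, and on that beside G2KO at 0.566, below background and at 0.461, so the arrays fell into a high and a low pair. Pdgfrb differed 8.4-fold, Tnc 10.7-fold and S100a4 7.64-fold in the same direction. Dcn, decorin, went the other way, with 49 on the DKO array, 0.757 on the array labelled G2KO, 2.95 and 0.0722 on the WT arrays beside DKO and G2KO. The summed level of the list was 608 and 682 on the arrays compared. If the labels of the G2KO pair were exchanged, 11 fibroblast markers were higher and 5 lower on the DKO array.

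Of 17 contractile genes of smooth muscle, which MEFs express under serum, 5 were lower and 1 was higher on the DKO array, with a median of -0.83 and summed levels of 125 on the DKO array, 378 on the array labelled G2KO, 479 and 569 on the WT arrays beside DKO and G2KO. Tagln was at 11.6 against 105 (9.04-fold), Myl9 at 13.1 against 64.5 (4.93-fold), and Acta2, smooth muscle actin, at 29.6 against 107 (log2 ratio -1.86). Itga8, an integrin subunit, was at least 124-fold and Myocd, the coactivator of the contractile program, at least 10.9-fold lower. The kinase gene Mylk was 9.94-fold higher on the DKO array.

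For markers of other cell types, the share of compared genes past 4-fold was 18.2% (skeletal muscle), 10% (endothelial), 20% (macrophage and leukocyte) and 16.7% (neural). Over all named genes it was 9.39%. Of 14 skeletal muscle markers, 11 were compared, none was higher and 2 were lower on the DKO array (Chrna1 at least 49.7-fold and Acta1 4.96-fold), with Myod1 and Myog dim on the DKO array. Among 14 endothelial markers, of which 10 were compared, Ecscr alone passed 4-fold (5.13 against 0.0451), with Pecam1 at 0.0758 and 0.0578 and Tie1, Emcn, Robo4 and Erg dim on both arrays. Of 14 macrophage and leukocyte markers, 10 were compared and 2 passed, Cd14 (4.2-fold) and Lyz2 (at least 7.47-fold), both higher on the DKO array, with Ptprc, the pan-leukocyte marker, at 0.0188 and 0.0192. The summed levels of the macrophage list were 19.9 on the DKO array and 19.3 on the array labelled G2KO, and those of the endothelial list 15.3 and 9.65. Of 25 neural markers, 18 were compared, 1 was higher and 2 were lower on the DKO array, and Sox2 and Sox6 were dim on both. Foxa2, a factor of floor plate and endoderm, was at 3.58 on the DKO array and dim on the array labelled G2KO (at least 543-fold), dim on the WT array beside DKO and at 2.46 on that beside G2KO, and a second probe gave a limit of 7.47 on the log2 scale. The WT array beside G2KO stood apart for these genes, with a summed level of the neural list of 58.0 against 6.14 on the DKO array, 4.69 on the array labelled G2KO and 5.49 on the WT array beside DKO. En2 was at 14.8 there and at 0.0424, 0.026 and 0.0284 on those 3 arrays, and Sox2 and Sox6 were at 2.37 and 0.118 there and dim on the other 3. The study lists En2, Foxa2, Sox2 and Sox6 as up-regulated in G2KO MEFs. Genes on the Y chromosome, Ddx3y, Eif2s3y and Uty, had log2 ratios of -0.59, -0.13 and 0.70, and Xist was dim on both arrays, so the sex-linked genes did not separate the preparations compared here. On the WT array beside G2KO, in contrast, Xist was at 1.13 and those Y-linked genes were dim, while the WT array beside DKO had Xist dim and the Y-linked genes above background. If the labels of the G2KO pair were exchanged, this difference would enter the comparison. The study lists Xist as up-regulated in G2KO MEFs and ascribes this to their female origin.

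**Figure D3:**
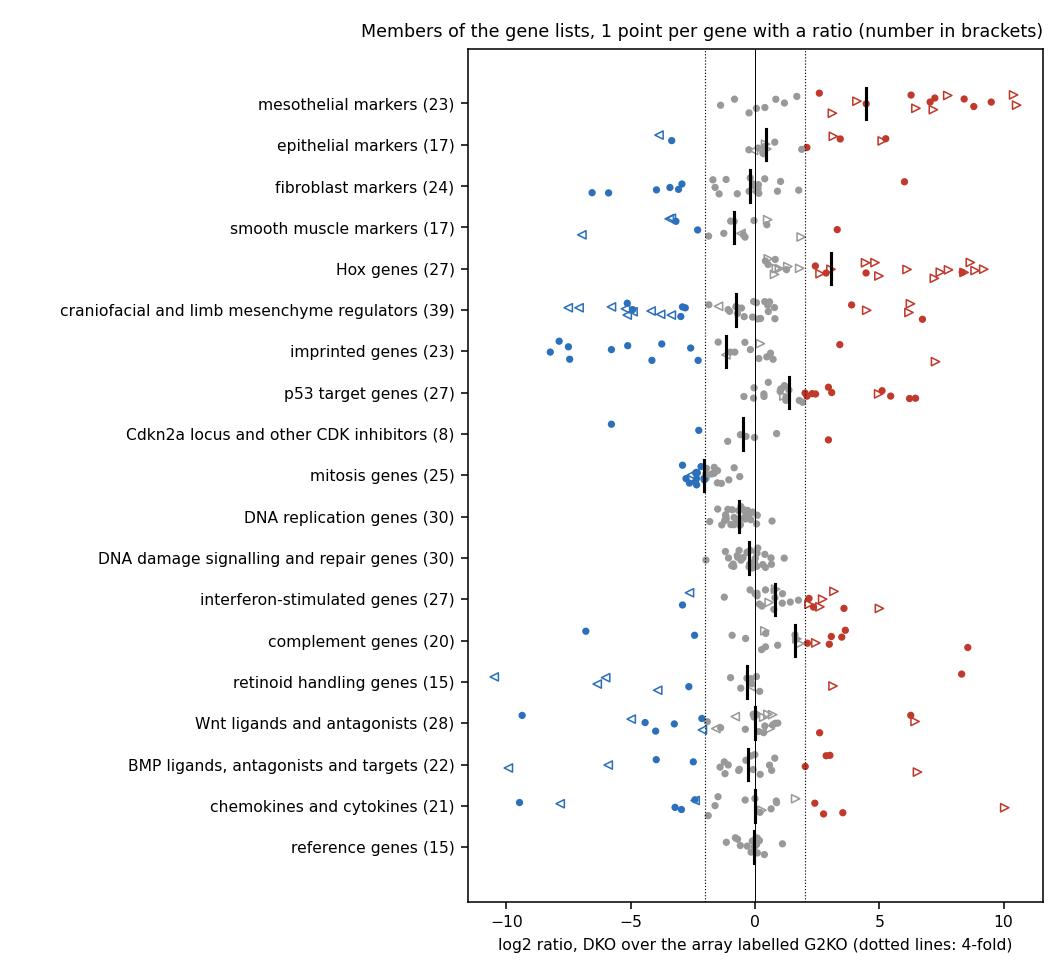
Log2 ratio of DKO over the array labelled G2KO (x axis) for each gene with a ratio, by gene list (rows, number of genes in brackets); dots are measured ratios, open triangles lower limits, colours mark at least 4-fold and black bars the list medians. The mesothelial and Hox lists lie to the right with medians of 4.48 and 3.06, the mitosis and imprinted lists to the left with -2.03 and -1.17, and the reference genes lie around -0.02.

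Hox genes encode the homeodomain factors that specify position along the body axis, with low numbers at the 3′ end of each cluster expressed toward the head and high numbers toward the tail; fibroblasts keep the pattern of the place they come from. Of 39 Hox genes on the array, 27 were compared, and 17 were higher on the DKO array against 0 lower. All 27 had a ratio above 0 under each scaling tried in which they could be compared. For 19 of them this sign was set by the filter, since they were above background on the DKO array alone. The 8 that were above background on the array labelled G2KO as well also had ratios above 0. The median log2 ratio was 3.06, with 19 of the 27 values lower limits, and it was 1.96 after another background correction (normexp) and 4.45 when the median over a gene's probes was used. The Hoxb cluster was the fullest: Hoxb2 to Hoxb9 all passed 4-fold, while Hoxb1 and Hoxb13 at its ends were dim on both arrays. Hoxb7 was at 3.9 (at least 590-fold), Hoxb4 at 3.06 (at least 464-fold), Hoxb9 at 2.68 (at least 406-fold) and Hoxb2 at 2.25 (at least 341-fold) on the DKO array, and all 4 were dim on each of the other 3 arrays. Hoxb6 was measured on both arrays, at 3.92 and 0.0121 (324-fold), and Hoxb8 and Hoxb5 had limits of 221-fold and 176-fold. Of Hoxb2 to Hoxb9, Hoxb3 had the smallest difference, 0.255 against 0.0473 (5.4-fold). In the Hoxa cluster, Hoxa3 was at 1.05 (at least 149-fold), Hoxa2 at 0.21 (at least 31.8-fold), Hoxa7 at 0.327 (22.2-fold), Hoxa5 at 0.144 (at least 21.9-fold) and Hoxa4 at 0.14 (7.28-fold) on the DKO array. Hoxc6 (at least 69.6-fold), Hoxd8 (at least 28.5-fold), Hoxd4 (at least 8.34-fold) and Hoxd9 (at least 6.15-fold) were the genes past 4-fold in the Hoxc and Hoxd clusters. No Hox gene numbered 10 or more passed 4-fold, and Hoxa10, Hoxa11, Hoxc11, Hoxd10, Hoxd11, Hoxd12 and Hoxd13 were among the 12 dim on both arrays.

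**Figure D4:**
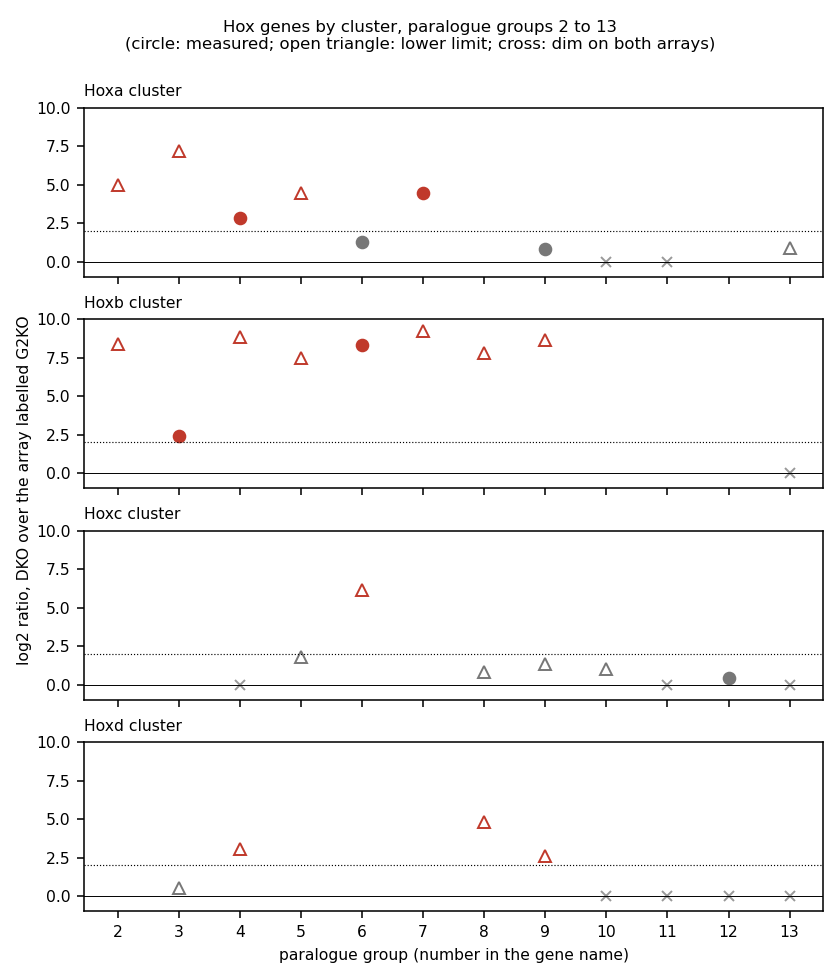
Log2 ratio of DKO over the array labelled G2KO for the Hox genes (y axis), in 4 panels for the Hoxa to Hoxd clusters, by paralogue group from 2 to 13 (x axis); circles are measured, open triangles lower limits, crosses genes dim on both arrays (drawn at 0), red at least 4-fold, and the dotted line marks 4-fold. The red symbols lie between paralogue groups 2 and 9 in every cluster that has them, and the Hoxb genes are the highest.

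Regulators of face, pharyngeal arch and limb mesenchyme went the other way more often. Of 45, 39 were compared, 14 were lower and 5 higher on the DKO array, with a median of -0.75. This direction did not hold with the labels of the G2KO pair exchanged, when 34 were compared, 7 were lower and 6 higher, and the median was 0.15. Alx1, a factor of facial mesenchyme, was at 1.33 on the array labelled G2KO and dim on the DKO array (at least 182-fold), at 2.12 on the WT array beside DKO and dim on that beside G2KO. Tfap2a, of neural crest, was at least 134-fold lower. The Dlx genes, which pattern the pharyngeal arches, were lower for Dlx1 (at least 54.5-fold), Dlx2 (30.1-fold) and Dlx5 (at least 18-fold), and Dlx3 and Dlx6 had log2 ratios of 0.40 and 0.81. Shox2, Lhx8 and Foxc2 were lower by 35.1-fold or more, and Msx1 and Msx2 by 6.96-fold and 7.52-fold. The 5 higher genes were Lhx2 (1.85 against 0.0173, 107-fold), Hand2 (at least 76.5-fold) and Tbx5 (at least 73.4-fold), which act in limb, heart and flank mesoderm, together with Foxf1 (at least 22.6-fold) and Six2 (14.8-fold). Twist1 and Prrx1, general mesenchymal factors, had log2 ratios of -0.70 and -1.08.

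The p53 target list stood higher on the DKO array: of 27 targets, 11 were higher and 0 lower, 24 had a ratio above 0, and the median was 1.37. Ccng1, a target of p53 that is itself deleted in DKO MEFs, was kept out of this list. The number higher was 8 to 11 under the scalings and background correction tried, and 5 if the labels of the G2KO pair were exchanged. Perp, a membrane protein in p53-dependent apoptosis, was at 35 on the DKO array against 0.469 (74.6-fold), Ddit4l, an inhibitor of mTOR signalling, at 3.14 against 0.0357 (88.1-fold), Dcxr, a carbonyl reductase, at 2.91 against 0.066 (44-fold), and Trp53inp1 at 4.34 against 0.125 (34.7-fold). All 4 had their highest level of the 4 arrays on the DKO array. Cdkn1a, which encodes the CDK inhibitor p21, was at 5 against 0.643 (7.77-fold), with 0.572 on the WT array beside DKO and 8.2 on that beside G2KO. Mdm2, the ligase that limits p53, was at 32.5 against 7.61 (4.27-fold), with 6.14 and 19.3 on those WT arrays. The DKO array and the WT array beside G2KO were thus the high pair for both genes. Fas, a death receptor, differed 8.52-fold, Btg2 5.43-fold, Ercc5, a nuclease of excision repair, 4.95-fold and Zmat3 4.05-fold, and Eda2r at least 31.5-fold. Of the proapoptotic Bcl2 relatives, Bax, Bbc3 and Pmaip1 had log2 ratios of 1.07, 1.37 and -0.05. The summed level of the list was 167 on the DKO array, 45.3 on the array labelled G2KO, 48.8 and 118 on the WT arrays beside DKO and G2KO. Trp53 itself was at 0.867 and 0.646, a log2 ratio of 0.43.

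Among 8 genes of CDK inhibitors and the Cdkn2a locus, 1 was higher and 2 were lower on the DKO array. Cdkn2a, which encodes p16 and Arf and is often lost when MEFs become immortal, was at 5.09 against 24.3 (4.78-fold lower), at 23.3 on the WT array beside DKO and at 0.0157 on that beside G2KO. Its neighbour Cdkn2b was at 4.03 and 4.07. Cdkn1c, which encodes p57, was at 0.0145 against 0.792 (54.6-fold lower), and Cdkn1b, which encodes p27, had a log2 ratio of 0.87.

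Genes of mitosis were lower on the DKO array, where 13 of 25 passed 4-fold, 0 were higher, all 25 had a ratio below 0 under every scaling tried, and the median was -2.03. With the labels of the G2KO pair exchanged, 22 passed. Tpx2, a spindle assembly factor, was at 0.669 against 5.03 (7.52-fold), Cenpa, the centromeric histone, at 0.806 against 5.5 (6.82-fold), Plk1, a mitotic kinase, at 1.55 against 9.57 (6.2-fold), and Ccnb2, cyclin B2, at 1.86 against 9.71 (5.22-fold). Mki67, the proliferation marker, was at 2.66 against 10.3, a log2 ratio of -1.96. On the WT array beside DKO these 5 genes had levels of 1.98, 0.715, 1.44, 1.34 and 2.13, and on that beside G2KO of 8.89, 7.01, 14.4, 11.2 and 23.1. The arrays of the DKO pair had the low levels and those of the G2KO pair the high ones, with summed levels over the list of 32.7 for DKO, 30.2 for the WT beside it, 127 for the array labelled G2KO and 214 for the WT beside that. The DKO array and the WT array beside it thus lay closer to each other than to the arrays of the G2KO pair, and what set the pairs apart was not tested.

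DNA replication genes had the same sign at a smaller size: 27 of 30 had a ratio below 0, the median was -0.63, and 0 passed 4-fold. Rrm2, a subunit of ribonucleotide reductase, had the lowest ratio, with 4.98 against 17.5 (-1.82), and Mcm3 of the replicative helicase was at 5.15 against 10, while Rrm1 had 0.69. Of 30 genes of DNA damage signalling and repair, likewise 0 passed 4-fold and the median was -0.22. H2afx, whose protein H2AX marks double-strand breaks, was at 2.99 against 11.7 (-1.97, or 3.91-fold), at 6.1 and 18.1 on the WT arrays beside DKO and G2KO. Chek2 and Atm, kinases of the damage checkpoint, had ratios of 0.06 and -0.10, and Ppm1d, a phosphatase that ends the response, had the highest with 1.18.

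**Figure D5:**
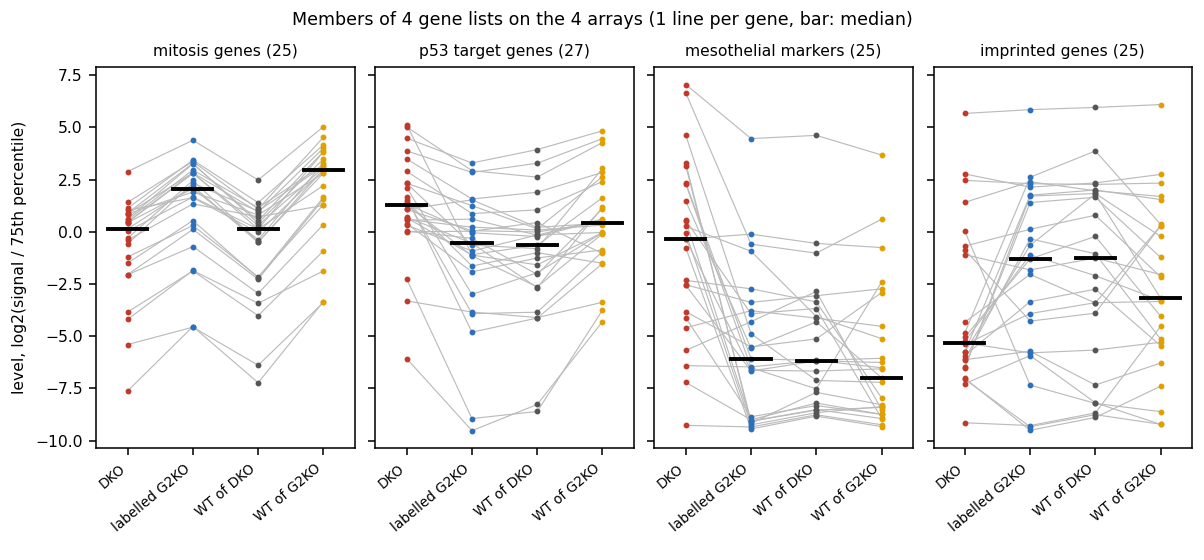
Levels (y axis, log2 of the multiple of the 75th percentile) of the members of 4 gene lists on the 4 arrays (x axis), 1 grey line per gene, coloured dots for the arrays and black bars for the median of the list. Mitosis genes are low on the DKO array and on the WT array beside it, p53 targets are high on the DKO array and on the WT array beside G2KO, mesothelial markers are high on the DKO array, and imprinted genes are low there.

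Imprinted genes, which are expressed from 1 parental allele and many of which control fetal growth, were lower on the DKO array in 10 of 23 compared and higher in 2, with a median of -1.17. Meg3, a noncoding RNA of the maternal allele, was at 0.0109 against 3.27 (300-fold), and 2 further Meg3 probes gave log2 ratios of -2.67 and at most -6.01. H19, another maternal noncoding RNA, was at 0.0186 against 3.37 (181-fold), at 4.01 and 2.91 on the WT arrays beside DKO and G2KO, although a dimmer second probe with levels of 0.0211 and 0.0173 gave 0.29. Plagl1, a zinc-finger factor, was at 0.035 against 6.12 (175-fold) and Slc38a4, an amino acid transporter, at 0.0113 against 2.64 (234-fold). Of the other Plagl1 probes, 1 gave -7.69 and 2 gave 0.40 and -0.09, so the difference was not shared by all its probes. Dlk1 (34.6-fold), Mest (13.4-fold), Igf2 (5.99-fold), Mirg (17.6-fold) and Snrpn (4.86-fold) were lower as well. Peg3 was at 1.02 on the DKO array and dim on the other 3 (at least 154-fold above the array labelled G2KO), and Ndn differed 10.7-fold in that direction. Igf2r and Gnas, measured at 2.66 and 51 on the DKO array, had ratios of -0.98 and -0.18. Of 27 polycomb genes, whose products keep Hox genes silent, 1 passed 4-fold: Phf19, an accessory factor of PRC2, at 0.0737 against 0.798 (10.8-fold lower). Ezh2, Suz12 and Eed, the core of PRC2, had ratios of -0.47, -0.22 and -0.44.

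Matrix genes differed in both directions. Among 15 small leucine-rich proteoglycans, 11 were compared, 1 was higher and 2 lower on the DKO array. Aspn, asporin, is listed by the study as down-regulated in both G2KO and DKO MEFs. It was dim on the DKO array and at 3.4 on the array labelled G2KO (at least 465-fold lower), at 6.6 on the WT array beside DKO and dim on that beside G2KO. Omd, its neighbour on chromosome 13, was at 0.0348 against 1.12 (32.2-fold lower), and Dcn was 64.8-fold higher. Of 34 collagen genes compared, 5 were lower and 1 was higher, with a median of 0.00: Col2a1 and Col10a1, collagens of cartilage, differed 18.7-fold and 8.12-fold, Col8a1, Col12a1 and Col7a1 between 5.37-fold and 5.95-fold, and Col15a1 was at least 27.1-fold higher. Of 27 matrix proteases and inhibitors, 4 were higher and 3 lower: Mmp23 was at 5.36 against 0.0417 (128-fold), Adamts2, which trims procollagen, at 11.4 against 0.193 (59.2-fold), Serpine2 and Adamts5 passed by 4.8-fold and 4.08-fold, and Mmp9 (at least 37.9-fold), Mmp3 (6.25-fold) and Plau (4.97-fold) were lower. Timp1 and Mmp14 had ratios of -0.11 and 0.16. With the labels of the G2KO pair exchanged, the counts higher and lower on the DKO array were 5 and 0 for the proteoglycans, 10 and 2 for the collagens and 8 and 0 for the proteases.

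Genes of retinoic acid handling differed in both directions. Of 15 compared, 5 were lower and 2 higher on the DKO array, with a median of -0.32. Besides Crabp1, the binding protein gene Crabp2 was 6.3-fold lower, the synthase Aldh1a3 at least 81-fold, the hydroxylase Cyp26b1 at least 64.1-fold and the carrier Rbp4 at least 15-fold. Aldh1a1, another synthase, was at 16.9 against 0.0531 (319-fold higher), at 0.135 on the WT array beside DKO and at 18.9 on that beside G2KO, and Stra6, the retinol uptake receptor, was at least 8.84-fold higher. The receptors Rara and Rarg had ratios of -0.15 and 0.19.

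Secreted signals were among the largest differences in both directions. Of 28 Wnt ligands and antagonists, 7 were lower and 3 higher on the DKO array, with a median of 0.02. Dkk3 was at 0.011 against 7.2 (657-fold lower), with 7.58 and 1.54 on the WT arrays beside DKO and G2KO, and Dkk2 and Sfrp2, which also restrain Wnt signalling, were 15.9-fold and 9.45-fold lower. The ligand gene Wnt10a (at least 87.1-fold) and Rspo3 (77.1-fold), whose product enhances Wnt signalling, were higher. Of 22 BMP genes, 4 were lower and 4 higher: Chrdl1, an antagonist, was at least 59.6-fold lower, and the ligands Gdf6 (at least 93.1-fold) and Bmp2 (8.1-fold) were higher. Grem1 had levels of 27.6 and 43.3, a log2 ratio of -0.65.

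In prostanoid synthesis, 2 of 11 genes were higher and 2 lower, or 4 and 0 with the labels of the G2KO pair exchanged. While Ptgis was the largest limit of all, the cyclooxygenases upstream of it were lower on the DKO array, Ptgs1 at 1.74 against 22.1 (12.7-fold) and Ptgs2 at 3.03 against 18 (5.94-fold). Hpgd, which degrades prostaglandins, was at least 4.77-fold higher, and Ptges, the prostaglandin E synthase, was at 9.33 and 9.32.

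Of 22 chemokines and cytokines compared, 1 of which gave no fold, 6 were lower and 4 higher on the DKO array, but 2 were lower and 9 higher with the labels of the G2KO pair exchanged. The neutrophil chemokines Cxcl5 and Cxcl1 were the lowest: Cxcl5 was at 0.0114 on the DKO array, 8.09 on the array labelled G2KO, 1.53 on the WT array beside DKO and dim on that beside G2KO, a 707-fold difference between the arrays compared, and Cxcl1 was at least 227-fold lower. Il11, Il34, Ccl9 and Csf2 were lower by between 5.29-fold (a limit, for Csf2) and 9.25-fold. Ccl2 and Ccl7, which draw monocytes, were at 117 and 39.9 on the DKO array against 22 and 3.44 (5.32-fold and 11.6-fold), and Cxcl12, the stromal chemokine, at 92.7 against 13.7 (6.79-fold), higher than on both WT arrays.

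Of 20 complement genes compared, 7 were higher on the DKO array and 2 lower, with a median of 1.63 (0.95 after normexp correction). C1s and C1ra, proteases of the first component, were at 6.76 against 0.543 (12.5-fold) and 5.81 against 0.515 (11.3-fold), and C3 was at 2.67 against 0.335 (7.97-fold). The WT array of the DKO comparison had intermediate levels of C1s and C1ra (4.05 and 3.29). Cd59a, a membrane inhibitor, was 111-fold and Masp1 5.37-fold lower. Of 27 interferon-stimulated and antigen-presentation genes, 8 were higher and 2 lower, with a median of 0.81, but 3 and 0 after normexp correction. Tap1, the peptide transporter, was at 0.213 against a dim signal (at least 32.2-fold) and the immunoproteasome genes Psmb8 and Psmb9 differed 12-fold and at least 9.07-fold, whereas Ifit3, Isg15 and Stat2 had ratios of 0.08, 0.28 and 0.01.

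Of 31 genes of glutathione and oxidative stress defence, 4 were higher and 0 lower: Mgst1, a membrane glutathione transferase, was at 5.57 against 0.0254 (220-fold), with 0.00639, which was dim, and 2.54 on the WT arrays beside DKO and G2KO, and Gstm2 (17.4-fold), Gstm3 (6.41-fold) and Mgst2 (4.27-fold) followed. Sod1, Cat and Gsr had ratios of 0.39, -0.04 and -0.01. The list median was -0.01.

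Of 15 reference genes, read to see how the scaling aligned the arrays, 0 passed 4-fold. Their median ratio was -0.02, or -0.20 under quantile normalization, and single ratios ran from -1.15 to 1.11. Actb was at 223 and 209, Gapdh at 119 and 115, and Rplp0 at 136 and 138 on the DKO array and the array labelled G2KO. Probes past 4-fold lay on every autosome, with shares from 6.34% of the probes compared on chromosome 19 to 10.03% on chromosome 1, and 9.25% on the X chromosome.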

How the data were processed

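Total RNA of each of the 4 MEF preparations was read on 1 array in the Cy3 channel, and groups were taken from the sample labels. The deposited values are signal intensities that the authors extracted with Agilent Feature Extraction (version 10.5.1.1 per the submitters' processing notes and 10.7.3.1 in the file headers), with background correction inside an array and no scaling from array to array. The deposited value table holds the same intensities. No spot was saturated, and between 107 and 140 spots per array marked as outliers were left out, besides 1377 control spots. Levels were set relative to the 75th percentile of each array (signals of 1777.09 for DKO and 2233.61 for the array labelled G2KO), spots of a probe were averaged on the log2 scale, and dim probes were floored as described with the results. Background-corrected signals of dim spots are small, so that a limit depends on the floor where the dim signal lies under it. Between 25600 and 28450 of the probes were well above background on an array, and the median SD between spots of a probe lay between 0.0581 and 0.0929. With 1 array per side no test was run; the number of arrays limits the precision. Positions of probes were taken from the files (build mm9). For a gene with several probes the brightest over the 4 arrays was used in gene counts and gene lists. The genes with the largest differences, given before the lists, were instead shown by their probe with the largest ratio or limit. For Srpx2 and Acp5 this was not the brightest probe. Of 32314 probes identified by a RefSeq transcript, 26033 were found in a reference table of GRCm38.p6, used for names.

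The genes named were Ccng1, Ccng2 and those the study names for its microarrays, the 12 largest measured ratios and the 8 largest limits in each direction, and, of each gene list, about the 3 highest and 3 lowest members, the brightest member and dim defining markers; further list members were added after their values were seen. Some genes that this rule names are not reported here. Lists and comparison were chosen with earlier results of these data known, and support nothing on their own. Trp53cor1, Col6a3 and Rian were not found among the probes by name or transcript and were not read. The study lists Col6a3 as down-regulated in both G2KO and DKO MEFs. The comparison step was tested on simulated data. The alternatives were normexp with an offset of 50 (limma 3.58.1, R 4.3.3), the deposited table, quantile normalization, the median as the scale, unscaled signals, other filters on dim probes, other fold thresholds, genes in place of probes, outlier spots kept, the median over a gene's probes, and the labels of the G2KO pair exchanged. Python 3.11.15, numpy 2.4.6 and pandas 2.3.3 were used. The methods describe dye-swapped arrays for G2KO MEFs, whereas the labels and files are single-color.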

Additional observations from a re-analysis of the deposited data

How the results depend on the processing

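The count of 2461 probes past 4-fold (1340 higher and 1121 lower in DKO) depended most on dim probes and on the threshold. It was 1236 (723 and 513) after normexp correction, 1540 (820 and 720) for probes above background on both arrays, 3759 (2367 higher) with no filter and no floor, 6896 (3991 and 2905) at 2-fold and 957 (532 and 425) at 10-fold. The other settings kept it within 1.5 times. Scaling to the median shifted all ratios by -0.13 and no scaling by -0.33. List medians near 0 changed sign with the scaling: those of Wnt genes, chemokines and prostanoid genes fell to between -0.07 and -0.47 under quantile normalization, scaling to the median or no scaling, and those of neural markers, sex-linked genes and matrix proteases were below 0 without scaling. The mesothelial median was 2.14 for probes above background on both arrays. The Hox median was 1.96 after normexp, 1.85 for probes above background on both arrays, 4.47 with no filter and 4.45 with the median over a gene's probes. If the labels of the G2KO pair were exchanged, so that the WT array of that pair took the place of the array labelled G2KO, 2772 probes passed 4-fold, the medians were 1.28 for fibroblast markers, 4.85 for sex-linked genes, 1.51 for small leucine-rich proteoglycans, 1.25 for prostanoid genes, 1.73 for chemokines and 1.01 for collagens, with the craniofacial and limb median at 0.15, and the ratios of Aldh1a1 and Cxcl5 turned to -0.16 and 0.68; the cause was not tested. Counted over all settings, 313 values for named genes moved by less than the SD of 1.005 of single probe ratios between WT arrays. Another 85 moved by more, and 2 were the turned ratios of Aldh1a1 and Cxcl5. Under normexp, 43 named ratios moved by more and 4 by less, so most sizes depended on the background correction. Many of the 313 could not move that far. They include 47 from the deposited table, which holds the same intensities, and 26 for probes above background on both arrays. Scaling to the median and no scaling shift every ratio alike and gave 47 each. The 313 therefore do not measure how stable the ratios are. Among the 85 was En2, whose ratio also changed sign, from 0.71 to -8.44 with the labels of the G2KO pair exchanged. No paired analysis was possible because each group has 1 array, and no array could be left out. Besides the single array per side, signal over background limits the values: of the 2461 probes, 921 have only a limit, whose size depends on the floor or on the dim signal itself.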

Other observations

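Neighbouring genes that differed at least 4-fold in the same direction were counted after the values were seen, as 3 or more named genes in a row among those compared, ordered by probe position on mm9. There were 33 such runs, 21 higher on the DKO array and 12 higher on the array labelled G2KO; no chance level was computed, and genes of a family that lie together can share probe signal. The longest, on chromosome 11 from 96137748 to 96215181, held 9 genes, the Hoxb genes from Hoxb9 to Hoxb2 and 0610040B09Rik. The genes Psmb9, Tap1, Psmb8 and Tap2, which process antigen and lie together in the MHC, were higher on the DKO array (chromosome 17, 34319174 to 34353175), as were the glutathione transferases Gstm6, Gstm3, Gstm2 and Gstm4 (chromosome 3, 107741880 to 107846847) and the mast cell proteases Mcpt2, Mcpt4 and Mcpt8 (chromosome 14, 56663261 to 56702674), with sizes from 5.83 to 7.74 on the log2 scale for the latter. Higher on the array labelled G2KO were Lce1e, Lce1f, Lce1g, Lce1h and Lce1i, late cornified envelope genes (chromosome 3, 92511365 to 92581218, sizes from 3.51 to 6.23), and Mmp1b, Mmp3 and Mmp1a (chromosome 9, 7367842 to 7476854).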
